A study of Mus musculus with 12 samples.

Results

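The 8 genes described here make, load or switch on MHC class I molecules, and were chosen by name: H2-K1, H2-D1, B2m, Tap1, Tap2, Tapbp, Nlrc5 and Erap1. All 8 were found among the 54532 genes of the deposited table, and all 8 passed the filter on low counts that left 15122 genes for testing. The cells were C2C12, a line of mouse myoblasts, transfected at 30 nM for 48 h. Their medium held 5% serum per the labels, while the study's methods give a different level. The groups were siCONTROL (non-targeting), siKEAP1 (Keap1 depleted), siCCNF (Ccnf depleted) and siKEAP1/siCCNF (Keap1 and Ccnf depleted together), with poly(A)-selected RNA of 3 biological replicates sequenced in each. The labels name no transgene or deletion, and all 4 groups received an siRNA. KEAP1 is the adaptor of a ubiquitin ligase that turns over the antioxidant transcription factor NRF2, and cyclin F (CCNF) is the adaptor of a different ubiquitin ligase that acts in the cell cycle. Which of several Ccnf siRNAs was sequenced, and whether the 30 nM was the total or the dose of each siRNA in the double depletion, is not given in the sources used here.

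A class I molecule is a membrane-bound heavy chain, here H2-K1 or H2-D1, held by the small invariant subunit β2-microglobulin (B2m) and a short peptide. Peptides are cut from cytosolic proteins by the proteasome, pumped into the endoplasmic reticulum by the transporter that Tap1 and Tap2 form, trimmed there by the aminopeptidase Erap1 and fitted into the groove of the heavy chain with the help of tapasin (Tapbp). Nlrc5 is a transactivator that is recruited to class I promoters by factors bound to a conserved group of motifs, and interferons raise most genes of the pathway. Myoblasts carry little class I at rest and are known to raise it under interferon.

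The responses fell into different patterns. B2m, Tapbp and Erap1 rose by 1.94-fold, 2.13-fold and 2.80-fold after siCCNF and by 1.87-fold, 2.16-fold and 2.62-fold after siKEAP1/siCCNF. After siKEAP1 alone B2m and Tapbp rose by 1.27-fold and 1.33-fold, and Erap1 did not pass the test. H2-K1, Tap1 and Nlrc5 had their highest means after siKEAP1, at 2.21-fold, 1.69-fold and 4.01-fold of siCONTROL. Their means were lower when CCNF was depleted as well, a difference that passed the test for H2-K1 alone. Tap1 and Nlrc5 also rose after siCCNF (1.38-fold and 2.59-fold) and after both (1.40-fold and 2.71-fold), calls lost without siCONTROL replicate 1. For these 2 genes the libraries of all 3 depletions overlapped. H2-K1 rose 1.62-fold after both. The siKEAP1 libraries were not tested against those of siCCNF. Tap2 moved by 1.27-fold or less in every comparison, and H2-D1 passed no test against siCONTROL. Levels are given within a gene as CPM, the count relative to library size after TMM scaling, and as the deposited FPKM, which is per transcript length, between genes.

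**Figure D1:**
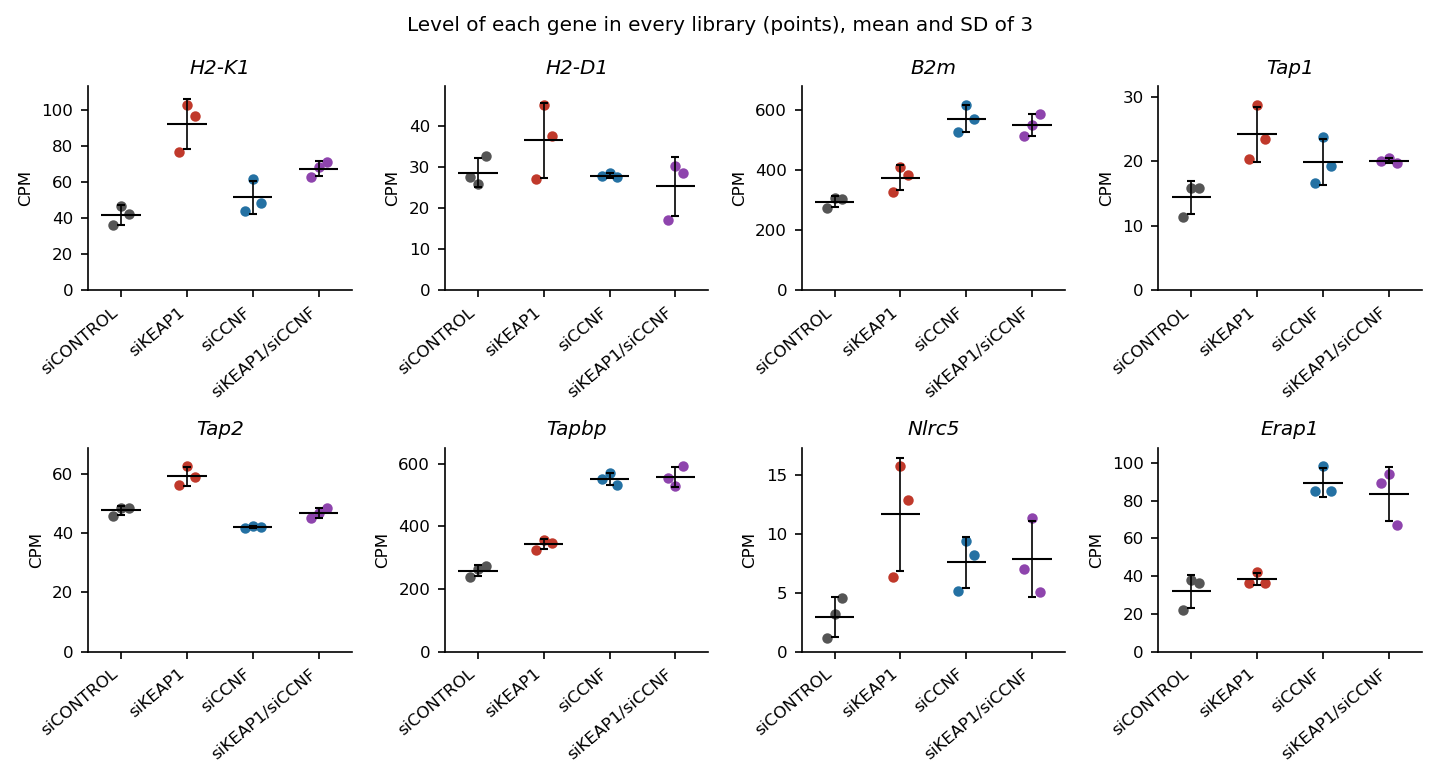
Levels in CPM (y axis) of the 8 genes in each library, as points by group on the x axis, with the mean as a horizontal line and the SD of 3 libraries as an error bar. The siCCNF and siKEAP1/siCCNF libraries lie above all siCONTROL libraries for B2m, Tapbp and Erap1, whereas H2-K1 and Nlrc5 have their highest mean after siKEAP1.

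In the siCONTROL libraries B2m was the most abundant of the 8 mRNAs at 338.8 ± 21 FPKM (SD, n = 3). Tapbp followed at 77.7 ± 5.24 FPKM, then H2-K1 at 15.9 ± 2.08, Tap2 at 12.5 ± 0.414 and H2-D1 at 11.0 ± 1.33 FPKM. The lowest levels were those of Erap1 at 4.36 ± 1.19, Tap1 at 2.61 ± 0.473 and Nlrc5 at 0.344 ± 0.200 FPKM. Of the neighbours in this order, Tap2 and H2-D1 overlapped in their libraries, and the others did not. The Tap1 mRNA lay below that of its partner Tap2 in every library.

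The targeted mRNAs checked the labels. Keap1 fell to 14.4% of its siCONTROL mean after siKEAP1 and to 27.5% after siKEAP1/siCCNF, and Ccnf fell to 25.3% after siCCNF, 30.2% after the double depletion and 73.2% after siKEAP1 alone. All 8 myoblast markers, among them Myod1 and Des, were detected with 10 or more counts in every library. Their summed level was 1943 to 2233 CPM in siCONTROL libraries and 1218 to 1253, 960.0 to 990.4 and 912.6 to 996.8 CPM after siKEAP1, siCCNF and both. The summed level of 11 genes of differentiated muscle was 101.6 to 225.0 CPM in siCONTROL and 58.3 to 61.5, 38.3 to 53.1 and 25.8 to 28.6 CPM after siKEAP1, siCCNF and both. Myog, a regulator of muscle differentiation, was at 0.387%, 17.9% and 3.89% of its siCONTROL mean, and siCONTROL replicate 1 (74.6 CPM) stood above replicates 2 (32 CPM) and 3 (29.3 CPM). Tnnt2 of the same list was higher after siKEAP1 (54.8 ± 1.59 against 22.3 ± 8.65 CPM, SD, n = 3), where it made up most of the sum, and lower after siCCNF and both (8.38 and 10.5 CPM). In bulk RNA, fewer cells of a type and less RNA per cell cannot be told apart. Of 10 markers of blood cells, which carry much class I, 6, among them Ptprc, Itgam, Adgre1, Cd3e and Itgax, had 3 counts or fewer in every library. The summed level of that list was 3.23 to 4.84 CPM in siCONTROL libraries and 7.34 to 12.4, 7.90 to 9.68 and 6.27 to 9.75 CPM after the depletions, where Cd68 after siKEAP1 (7.34 ± 2.38 against 0.997 ± 0.343 CPM, SD, n = 3) and Lyz2 after siCCNF (5.58 ± 0.476 against 2.35 ± 0.691) were higher. Lyz2 was lower after siKEAP1 (1.42 ± 0.395 CPM), with all 3 libraries below siCONTROL, and higher after both (4.53 ± 0.978 CPM). Cd68 was also above all siCONTROL libraries after siCCNF (2.37 ± 0.781 CPM) and both (2.90 ± 0.749 CPM). Of 5 endothelial markers, Kdr and Emcn had 3 counts or fewer in every library, and the summed level was 0.538 to 0.722 CPM in siCONTROL and 1.45 to 2.04, 0.0268 to 0.739 and 0.264 to 0.397 CPM after siKEAP1, siCCNF and both, with Tek (0.612 against 0.0982 CPM) and Cdh5 (0.830 against 0.296 CPM) higher after siKEAP1. The part of these markers in the results was not tested. In siCONTROL replicate 1 and siKEAP1/siCCNF replicate 3 the deviation from the group mean ran against gene length (r = -0.31 and -0.28 across genes), so counts of the 8 genes that passed are also given without both.

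The promoters of the heavy chains, B2m and Erap1 are shown because the first 3 hold the motifs to which the factors that recruit Nlrc5 bind and the last holds an interferon motif at its start. Each runs from 250 bases before to 50 bases after the RefSeq transcript start in GRCm38.p6, 5′ to 3′ on the strand of the gene. Capitals mark matches on either strand to CCAAT, to the X2 motif TGACG, to the NF-kB motif (GGG, any 5 bases, CC) and to the core of the interferon-stimulated response element (ISRE: GAAA, any 2 bases, GAAA).
H2-K1, chr17:34000284-34000583, minus strand: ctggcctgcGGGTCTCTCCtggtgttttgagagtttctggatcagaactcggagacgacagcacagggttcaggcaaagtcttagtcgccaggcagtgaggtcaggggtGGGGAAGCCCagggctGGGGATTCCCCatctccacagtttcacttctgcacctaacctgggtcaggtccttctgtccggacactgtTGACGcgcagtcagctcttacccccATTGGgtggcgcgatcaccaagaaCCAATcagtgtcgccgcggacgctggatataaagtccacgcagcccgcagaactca
H2-D1, chr17:35262844-35263143, plus strand: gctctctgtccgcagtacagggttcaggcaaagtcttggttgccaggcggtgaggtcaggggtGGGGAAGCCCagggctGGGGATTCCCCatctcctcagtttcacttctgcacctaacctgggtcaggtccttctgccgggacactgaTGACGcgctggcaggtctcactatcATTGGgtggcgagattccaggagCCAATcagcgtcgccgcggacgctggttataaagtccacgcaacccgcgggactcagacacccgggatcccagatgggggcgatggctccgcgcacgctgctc
B2m, chr2:122147437-122147736, plus strand: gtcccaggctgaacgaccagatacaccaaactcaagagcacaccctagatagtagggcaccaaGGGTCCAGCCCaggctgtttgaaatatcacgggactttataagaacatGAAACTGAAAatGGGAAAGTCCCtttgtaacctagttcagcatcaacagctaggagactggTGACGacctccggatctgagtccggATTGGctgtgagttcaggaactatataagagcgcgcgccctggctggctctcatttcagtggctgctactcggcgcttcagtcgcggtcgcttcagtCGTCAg
Erap1, chr13:74639603-74639902, plus strand: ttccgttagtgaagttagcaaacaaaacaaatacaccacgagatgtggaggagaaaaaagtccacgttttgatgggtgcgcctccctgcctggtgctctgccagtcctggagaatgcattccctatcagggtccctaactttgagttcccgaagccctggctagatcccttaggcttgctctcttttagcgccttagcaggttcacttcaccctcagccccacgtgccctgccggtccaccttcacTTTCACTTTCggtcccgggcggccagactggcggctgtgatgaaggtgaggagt

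The set of RefSeq promoters used here covered 6 of the 8 genes and left out Tap2 and Nlrc5, which says nothing about RefSeq itself. The X2 motif was present in 4 of the 6 (H2-K1, H2-D1, B2m and Tap1) and in 21% of 27025 promoters of this length. CCAAT was present in 5 of the 6, all but Erap1, and in 37.9% of all promoters, and the NF-kB motif in the same 4 as X2 and in 50.4%. The ISRE core was found from -139 to -130 of the B2m start and from -4 to 6 of the Erap1 start, and in 3.49% of all promoters. The interferon-gamma motif TTCNNNGAA (8.47% of all promoters) was in none of the 6. The core of the antioxidant response element, TGACNNNGC, to which NRF2 binds, matched in H2-K1 alone, from -51 to -43 on the minus strand and overlapping the last base of the X2 match, and was in 12.5% of all promoters. The motif of E2F transcription factors, TTTSSCGC (S is C or G), matched in Tap1 alone, from -135 to -128, and was in 2.32% of all promoters. The H2-K1 and H2-D1 windows were identical at 180 of 254 bases (70.9%) when laid over each other without gaps at a shift of 46 bases, and the X2 motif lay at -55 to -51 in the former and -101 to -97 in the latter, at that same shift. RefSeq starts lay 364 bases for H2-D1, 3579 bases for Tapbp and 285 bases for Erap1 from the gene starts in the deposited table, and 3 bases or fewer for the others. These matches are descriptions of the reference sequence.

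After siKEAP1, 6 of the 8 genes passed the test and all 6 were higher. By comparison 20.4% of all genes tested were higher and 20.2% lower. The median log2 fold change of the 8 was 0.38, against -0.01 for all genes. More than 2-fold rises were seen for H2-K1 and Nlrc5, that is 2 of 8, against 7.59% of all genes. For the same 6 genes every siKEAP1 library lay above every siCONTROL library, which held for 25.8% of all genes. Without the pair of libraries that deviated with gene length, 6 were again higher and none lower.

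After siCCNF, 5 of the 8 genes rose and Tap2 fell, where 22.5% of all genes were higher and 25.5% lower. The median of the 8 was 0.71 on the log2 scale, against 0.01 for all genes. Tapbp, Nlrc5 and Erap1 rose more than 2-fold, a size reached by 4.61% of all genes. The siCCNF libraries all lay above the siCONTROL libraries for 5 of the 8 genes and for 27.8% of all genes. Without the pair of libraries that deviated with gene length, 4 of the 8 were higher, Tap1 no longer passing (log2 fold change 0.31, adjusted p = 0.0862, edgeR), and Tap2 was still lower.

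After siKEAP1/siCCNF, 6 of the 8 genes rose and none fell, where 20.6% of all genes were higher and 23.6% lower. The median of the 8 was 0.80, against 0.01 for all genes. Tapbp, Nlrc5 and Erap1 rose more than 2-fold, as 4.73% of all genes did. For 6 of the 8, and for 23.2% of all genes, all siKEAP1/siCCNF libraries lay above those of siCONTROL. Without the same pair of libraries 5 of the 8 were higher, Tap1 again not passing (0.34, adjusted p = 0.0881, edgeR).

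**Figure D2:**
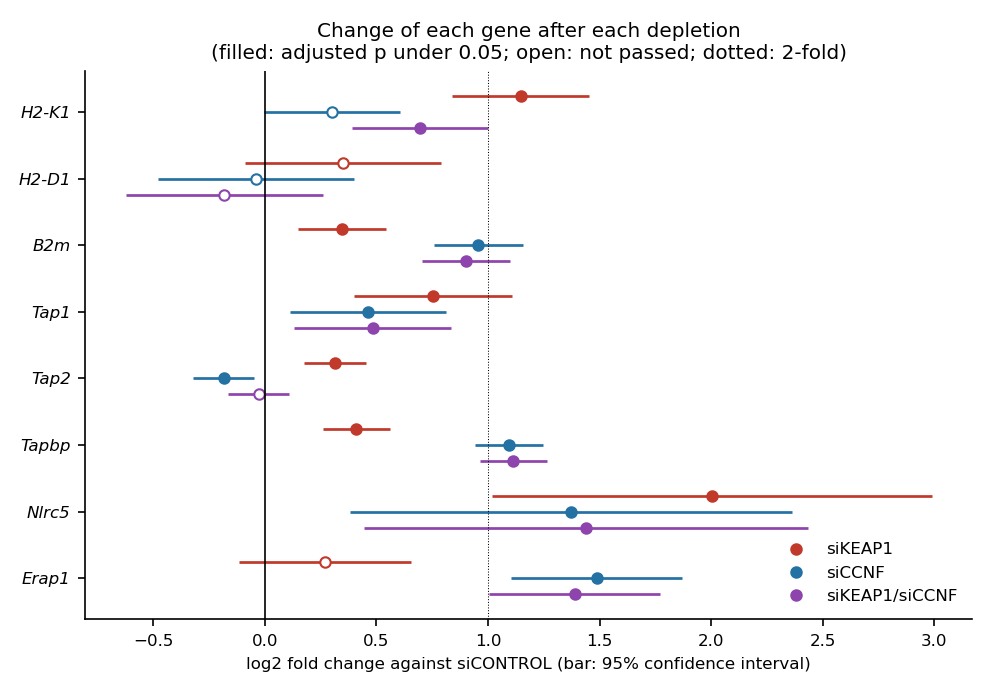
Log2 fold change against siCONTROL (x axis) of each gene (y axis) after each depletion, with 95% confidence intervals from edgeR, where filled points passed at an adjusted p under 0.05. B2m, Tapbp and Erap1 lie furthest right after siCCNF or siKEAP1/siCCNF (0.90 to 1.49), and H2-K1 (1.15), Tap1 (0.75) and Nlrc5 (2.00) after siKEAP1.

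The heavy chain gene H2-K1 (ENSMUSG00000061232, chromosome 17, 33996017 to 34000333, minus strand) was at 36.0, 46.8 and 42.6 CPM in the siCONTROL libraries and at 76.7, 103.3 and 97.2 CPM after siKEAP1. It was at 44.3, 62.1 and 48.3 CPM after siCCNF and at 63.0, 68.7 and 71.3 CPM after siKEAP1/siCCNF. The siKEAP1 libraries lay above all others, the siKEAP1/siCCNF libraries lay between them and siCONTROL, and the siCCNF libraries overlapped with siCONTROL. Its log2 fold change was 1.15 ± 0.14 (SE; adjusted p = 2.67e-05, edgeR) after siKEAP1 and 0.70 ± 0.14 (adjusted p = 0.00129) after both. After siCCNF it was 0.30 ± 0.14, with an interval that included 0 and reached 0.61 and an adjusted p of 0.0946 by edgeR. Without siCCNF replicate 1 this became 0.40 (adjusted p = 0.0474, edgeR). It also passed with no filter on low counts (0.31, adjusted p = 0.0172, edgeR) and with a block for replicate number (0.30, adjusted p = 0.0151, edgeR).

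H2-D1 (ENSMUSG00000073411, chromosome 17, 35262730 to 35267499, plus strand), the other classical heavy chain of the table, was at 27.5, 25.9 and 32.7 CPM in siCONTROL and at 27.0, 45.3 and 37.5 CPM after siKEAP1. It was at 27.8, 28.6 and 27.5 CPM after siCCNF and at 17.0, 30.2 and 28.7 CPM after siKEAP1/siCCNF. All 3 depletions overlapped with siCONTROL. The log2 fold change after siKEAP1 was 0.35 with an interval of -0.09 to 0.79 (adjusted p = 0.194, edgeR), so a rise as large as that of H2-K1 lies outside the interval, and rises of up to 0.79 lie within it. After siCCNF and after both it was -0.04 (interval -0.48 to 0.40) and -0.18 (-0.62 to 0.26). Without siKEAP1/siCCNF replicate 1, the lowest of the 12 libraries, the last of these was 0.04. Leaving out 1 library at a time, the change after siKEAP1 ran from 0.16 to 0.52 and did not pass. With no filter on low counts that change passed (0.34, adjusted p = 0.0440, edgeR).

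Reads of the heavy chains can be split among near copies. Of the distinct 50-base stretches in annotated transcripts, 9.63% of H2-K1 and 10.9% of H2-D1 also occurred in other class I genes, and none of those of B2m, Tapbp, Nlrc5 and Erap1. C2C12 cells stem from C3H mice, whose class I haplotype (H-2k) differs from that of the reference strain C57BL/6 (H-2b), so the counts of single heavy chain genes are uncertain in size. The sum over 19 heavy chain genes, which does not depend on how reads were split among them but does on reads lost to mismatches, was 220.8 ± 17.4 CPM (SD, n = 3) in siCONTROL, 348.0 ± 47.1 after siKEAP1, 245.5 ± 28.7 after siCCNF and 265.6 ± 23.7 after both. All siKEAP1 libraries (296.2 to 388.3) lay above the siCONTROL libraries (200.7 to 232.1) and above all others, all siKEAP1/siCCNF libraries (239.1 to 284.7) lay above siCONTROL, and those of siCCNF (225.0 to 278.3) overlapped with both. H2-K1 made up 18% to 20.4% of that sum in siCONTROL libraries, 25.9% to 27.1% after siKEAP1, 19.7% to 22.3% after siCCNF and 25.0% to 26.3% after both. The share of H2-T23, the gene of the nonclassical molecule Qa-1, was 19.5% to 20.4% in siCONTROL, 21.5% to 24.8% after siKEAP1 and 13% to 14.6% in the 6 libraries depleted of CCNF.

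**Figure D3:**
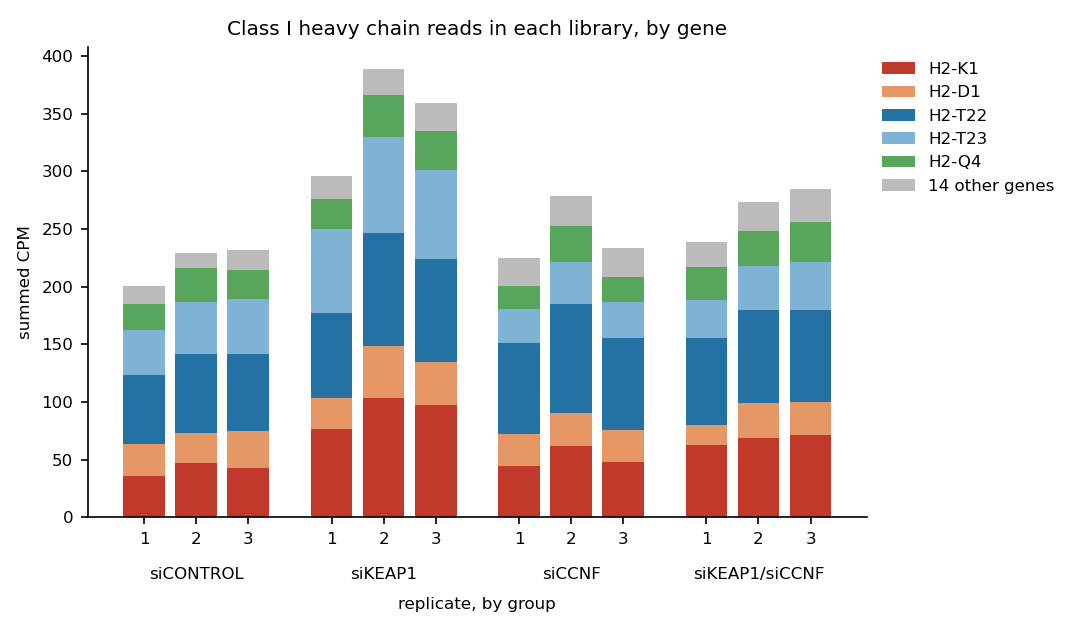
Summed CPM (y axis) of 19 class I heavy chain genes in each library (bars, by replicate and group on the x axis), divided by gene. The siKEAP1 bars are highest, at 296.2 to 388.3 CPM, and H2-T23 takes its smallest shares of the sum, 13% to 14.6%, in the 6 libraries depleted of CCNF.

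Of 17 other heavy chain genes listed, 7 passed the filter. Of these, 4 rose after siKEAP1 and none fell, 2 rose and 1 fell after siCCNF, and 2 rose after both, with medians of 0.41, 0.20 and 0.28 on the log2 scale. Over all genes tested the shares higher and lower were 20.4% and 20.2% after siKEAP1, 22.5% and 25.5% after siCCNF and 20.6% and 23.6% after both, and the 2 of 7 that rose after siCCNF and after both are near those shares. H2-T23 rose by 0.84 after siKEAP1 (adjusted p = 3.60e-05, edgeR), from 43.8 ± 4.08 to 78.1 ± 5.24 CPM, and fell to 32.1 ± 3.60 CPM after siCCNF (-0.45, adjusted p = 0.00379). H2-M3, which presents formylated bacterial peptides, rose instead most after siCCNF (0.92, adjusted p = 6.67e-06, edgeR) and by 0.40 and 0.81 after siKEAP1 and both. H2-T22 rose by 0.41, 0.38 and 0.28, and H2-T10 by 0.79 after siKEAP1. H2-Q4 passed none of the 3 tests.

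B2m (ENSMUSG00000060802, chromosome 2, 122147686 to 122153083, plus strand), the subunit that every class I molecule shares, was at 272.6, 305.4 and 303.0 CPM in siCONTROL and at 327.6, 408.9 and 382.4 CPM after siKEAP1. It was at 526.0, 617.0 and 567.4 CPM after siCCNF and at 511.7, 550.0 and 584.2 CPM after siKEAP1/siCCNF. No library of a depletion overlapped with siCONTROL, and the 6 libraries depleted of CCNF lay above all others. The log2 fold changes were 0.35 ± 0.09 (SE; adjusted p = 0.00820, edgeR), 0.96 ± 0.09 (adjusted p = 2.35e-06) and 0.90 ± 0.09 (adjusted p = 4.58e-06). Without siKEAP1 replicate 2, the first became 0.27 (adjusted p = 0.0513). B2m mRNA per summed heavy chain mRNA, as a ratio of FPKM, was 4.28 ± 0.0812 (SD, n = 3) in siCONTROL, 3.45 ± 0.0854 after siKEAP1, 7.35 ± 0.306 after siCCNF and 6.53 ± 0.210 after both. The 4 groups did not overlap in this ratio, with siKEAP1 lowest (3.39 to 3.54) and siCCNF highest (7.05 to 7.66).

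Among the genes of the transporter, Tap1 (ENSMUSG00000037321, chromosome 17, 34187553 to 34197225, plus strand) was at 11.4, 15.9 and 15.9 CPM in siCONTROL and at 20.3, 28.8 and 23.5 CPM after siKEAP1. It was at 16.6, 23.7 and 19.3 CPM after siCCNF and at 20.1, 20.5 and 19.7 CPM after both. All depleted libraries lay above all siCONTROL libraries. The log2 fold changes were 0.75 ± 0.16 (SE; adjusted p = 0.00227, edgeR), 0.46 ± 0.16 (adjusted p = 0.0311) and 0.48 ± 0.16 (adjusted p = 0.0281). Without siCONTROL replicate 1, the lowest library, the last 2 became 0.31 (adjusted p = 0.111) and 0.33 (adjusted p = 0.103). The siCCNF call was also lost without siCCNF replicate 2 (0.33) or 3 (0.49) and in the compared libraries only (0.46, adjusted p = 0.0588, edgeR), and that of the double depletion without its replicate 1 (0.48) or 2 (0.46). The start of Tap1 overlaps that of the proteasome gene Psmb9 on the opposite strand, which spans 34181988 to 34187764, and reads there cannot be told apart if counting ignored strand.

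Tap2 (ENSMUSG00000024339, chromosome 17, 34203527 to 34216321, plus strand), the other part of the transporter, was at 45.8, 48.6 and 48.5 CPM in siCONTROL and at 56.2, 62.6 and 58.9 CPM after siKEAP1. It was at 41.6, 42.3 and 41.9 CPM after siCCNF and at 45.0, 46.8 and 48.5 CPM after both. The siKEAP1 libraries lay above siCONTROL, the siCCNF libraries below, and those of the double depletion overlapped with siCONTROL. Tap2 rose by 0.31 ± 0.06 (SE; adjusted p = 0.00141, edgeR) after siKEAP1 and fell by 0.19 ± 0.06 (adjusted p = 0.0280) after siCCNF, and its change after both was -0.03 (interval -0.16 to 0.11). The fall after siCCNF was lost without siCONTROL replicate 2 or 3 or any 1 of the siCCNF replicates (adjusted p from 0.0656 to 0.0858), and when a gene length trend was removed (-0.13, adjusted p = 0.0883).

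Tapbp (ENSMUSG00000024308, chromosome 17, 33915899 to 33929288, plus strand), the chaperone that links the transporter to empty heavy chains, was at 238.2, 264.7 and 271.7 CPM in siCONTROL and at 325.5, 357.6 and 345.6 CPM after siKEAP1. It was at 549.2, 570.6 and 533.1 CPM after siCCNF and at 555.3, 528.5 and 592.0 CPM after both. The groups did not overlap except siCCNF with siKEAP1/siCCNF. Its log2 fold changes were 0.41 ± 0.07 (SE; adjusted p = 0.000372, edgeR), 1.09 ± 0.07 (adjusted p = 7.37e-08) and 1.11 ± 0.07 (adjusted p = 8.22e-08), the smallest adjusted p-values of the 8 genes in the last 2 comparisons. Tapbpl, a relative of tapasin that edits peptides, rose with it, by 0.54, 0.87 and 0.95 (adjusted p = 0.000697, 9.40e-06 and 5.20e-06, edgeR).

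Erap1 (ENSMUSG00000021583, chromosome 13, 74639568 to 74693201, plus strand), the peptide trimmer, was at 22, 37.8 and 36.2 CPM in siCONTROL and at 36.6, 42.3 and 36.6 CPM after siKEAP1. It was at 85.0, 98.4 and 85.3 CPM after siCCNF and at 89.3, 94.1 and 67.3 CPM after both. The siKEAP1 libraries overlapped with siCONTROL, and the 6 libraries depleted of CCNF lay above all others. Erap1 rose by 1.49 ± 0.18 (SE; adjusted p = 1.58e-05, edgeR) after siCCNF and by 1.39 ± 0.18 (adjusted p = 3.30e-05) after both, and its change after siKEAP1 was 0.27 (interval -0.11 to 0.65, adjusted p = 0.254).

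Nlrc5 (ENSMUSG00000074151, chromosome 8, 94434356 to 94527272, plus strand), the transactivator, had the fewest reads, from 25 to 391 counts per library. It was at 1.12, 3.20 and 4.53 CPM in siCONTROL and at 6.36, 15.8 and 12.9 CPM after siKEAP1. It was at 5.19, 9.41 and 8.21 CPM after siCCNF and at 7.06, 11.4 and 5.10 CPM after both. All depleted libraries lay above all siCONTROL libraries, with a wide spread within each group. The log2 fold changes were 2.00 ± 0.46 (SE; adjusted p = 0.00324, edgeR), 1.37 ± 0.46 (adjusted p = 0.0249) and 1.44 ± 0.46 (adjusted p = 0.0214). Without siCONTROL replicate 1, again the lowest library, the last 2 became 0.96 (adjusted p = 0.0793) and 1.03 (adjusted p = 0.0651). The siCCNF call was also lost without siCONTROL replicate 2 (1.44) or siCCNF replicate 2 (1.20) or 3 (1.31), and that of the double depletion without its replicate 2 (1.05). By limma on log2(FPKM + 1) neither of these calls passed (adjusted p = 0.0572 and 0.0538).

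The double depletion was compared with each single depletion to ask which of them it resembled. Against siKEAP1, 3 of the 8 genes were higher and 3 lower, where 24.1% of all genes were higher and 26.9% lower. The higher ones were Erap1 (1.12 ± 0.17, SE; adjusted p = 0.000142, edgeR), Tapbp (0.70 ± 0.07; 2.61e-06) and B2m (0.56 ± 0.09; 0.000206). The lower ones were H2-K1 (-0.45 ± 0.14; 0.0151), Tap2 (-0.34 ± 0.06; 0.000539) and H2-D1 (-0.53 ± 0.20; 0.0426). The H2-K1 call was lost without siKEAP1 replicate 2 (-0.36) or 3 (-0.41) or siKEAP1/siCCNF replicate 1 (-0.40). The H2-D1 call was lost without any 1 of 7 libraries, with the smallest change, -0.31, without siKEAP1/siCCNF replicate 1, and also by limma at both pseudocounts (adjusted p = 0.0545 and 0.0534) and in the compared libraries only (edgeR, adjusted p = 0.0822). Without the pair of libraries that deviated with gene length, 3 were higher and 3 lower as well. Tap1 (-0.27) and Nlrc5 (-0.56) did not pass, with intervals of -0.61 to 0.07 and -1.44 to 0.31, and Nlrc5 passed with no filter on low counts (-0.55, adjusted p = 0.0413, edgeR).

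Against siCCNF, none of the 8 genes passed in the main edgeR fit or by DESeq2, where 3.00% of all genes were higher and 2.19% lower. H2-K1 (0.39 ± 0.14, SE; adjusted p = 0.137, edgeR) and Tap2 (0.16 ± 0.06; 0.195) had unadjusted p-values under 0.05. H2-K1 passed with no filter on low counts (0.39, adjusted p = 0.0130, edgeR) and with a block for replicate number (0.40, adjusted p = 0.0238, edgeR). None of the 8 passed without the pair of libraries that deviated with gene length. For the other 6 genes the change lay between -0.14 and 0.07, and the narrowest intervals were those of Tapbp (-0.13 to 0.17) and B2m (-0.25 to 0.14).

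The interaction asks whether siKEAP1 had the same effect in cells depleted of CCNF as in control cells. It was negative and passed for 5 of the 8 genes and positive for none, where 10.6% of all genes had a positive and 10.5% a negative interaction. H2-K1 rose by 1.15 with siKEAP1 in control cells and changed by 0.39 in CCNF-depleted cells, an interaction of -0.75 ± 0.20 (SE; adjusted p = 0.0157, edgeR). For Tapbp the interaction was -0.39 ± 0.10 (adjusted p = 0.0123), with a siKEAP1 effect of 0.41 in control and 0.02 in CCNF-depleted cells. It was -0.40 ± 0.13 for B2m (adjusted p = 0.0414), -0.73 ± 0.23 for Tap1 (adjusted p = 0.0350) and -1.93 ± 0.61 for Nlrc5 (adjusted p = 0.0391, edgeR). H2-K1 and Tapbp kept the call whichever library was left out, whereas B2m, Tap1 and Nlrc5 lost it without any 1 of 9, 8 and 8 of the 12 libraries, with values nearest to 0 of -0.33, -0.58 and -1.51. The B2m call was also lost with library totals in place of TMM (-0.39, adjusted p = 0.0516, edgeR) and with the length trend removed (-0.37, adjusted p = 0.0775), and by limma all 3 were lost. For H2-D1, Tap2 and Erap1 it was -0.49, -0.16 and -0.37, with intervals that include 0. Without the pair of libraries that deviated with gene length, 4 of the 8 passed, Nlrc5 being lost (-1.28, adjusted p = 0.0520, edgeR). Keap1 mRNA was at 12.6 ± 0.279 CPM (SD, n = 3) after siKEAP1 and 24.1 ± 2.56 CPM after siKEAP1/siCCNF, and the part of this weaker depletion in the interaction was not tested. Despite their negative interactions, B2m at 548.6 ± 36.2 CPM and Tapbp at 558.6 ± 31.9 CPM lay far above siCONTROL in the double depletion.

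**Figure D4:**
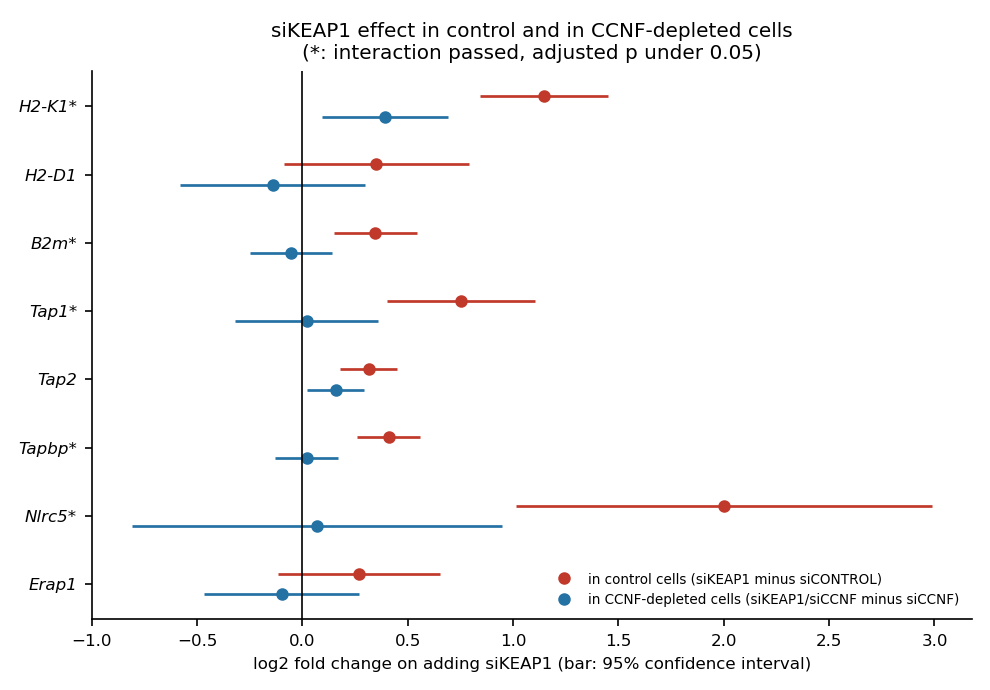
Log2 fold change on adding siKEAP1 (x axis) for each gene (y axis) in control cells and in CCNF-depleted cells, with 95% confidence intervals from edgeR and an asterisk where the interaction passed. All 8 points lie lower in CCNF-depleted cells, from -0.14 for H2-D1 to 0.39 for H2-K1, than in control cells, where they run from 0.27 for Erap1 to 2.00 for Nlrc5.

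Across the 12 libraries the log2 CPM of B2m, Tapbp and Erap1 varied together, with Pearson r from 0.94 to 0.98, and so did those of Tap1 with Nlrc5 (0.94), Tap1 with H2-K1 (0.89) and H2-K1 with Nlrc5 (0.80). Between these sets r was lower, from 0.10 for H2-K1 with Erap1 to 0.55 for B2m with Nlrc5. Tap2, which is in neither set, was at -0.56 with Erap1. These values describe 12 libraries in 4 groups that share the group differences above. The genes whose log2 CPM was most like the mean of the 8 were Gm6548 (r = 0.98), Oas3 (0.98), Parp10 (0.97), Zfp36 (0.96) and Trim12c (0.96). Oas3, an interferon-induced sensor of double-stranded RNA, was at 1.22 ± 0.869 CPM (SD, n = 3) in siCONTROL and 8.23 ± 3.83, 5.03 ± 2.71 and 4.84 ± 1.61 CPM after siKEAP1, siCCNF and both, and was also the gene most like Nlrc5 (0.98), ahead of Mndal (0.97). Most like B2m were Atp13a1 (0.99) and Angptl4 (0.99), the latter at 39.7 ± 10.1 CPM in siCONTROL and 306.9 ± 48.3 CPM after siCCNF. Most like H2-K1 were Hormad2 (0.97), which was at 1.05 CPM or less in all libraries, and Gpr137b (0.97), which went from 29.3 ± 4.33 to 103.5 ± 2.59 CPM after siKEAP1 and to 66.0 ± 8.76 CPM after both.

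The immunoproteasome replaces the catalytic subunits of the standard proteasome and favours peptides that fit class I, and PA28 opens its gate. Of its 5 genes, 2 rose with siKEAP1, 5 with siCCNF and 4 with the double depletion, and none fell, with medians of 0.19, 0.86 and 0.83, where 20.4%, 22.5% and 20.6% of all genes rose. Psmb10 went from 16.1 ± 1.28 CPM (SD, n = 3) in siCONTROL to 32.4 ± 4.38 after siCCNF and 33.4 ± 2.10 after both (1.01 and 1.05; adjusted p = 3.54e-06 and 2.95e-06, edgeR), with 17.4 ± 0.255 CPM after siKEAP1 (0.12, adjusted p = 0.408). Psmb8 rose in all 3 depletions, by 0.99, 0.92 and 1.44, from 5.15 ± 2.40 to 10.2 ± 1.33, 9.66 ± 1.28 and 13.9 ± 1.62 CPM. Psmb9, at 2.08 ± 0.620 CPM in siCONTROL, rose by 0.86 after siCCNF alone (adjusted p = 0.0331, edgeR). The PA28 genes Psme1 and Psme2 rose by 0.68 and 0.61 after siCCNF and by 0.83 and 0.60 after both, and Psme1 by 0.42 after siKEAP1. Of 5 genes of the standard subunits and other activators 1 rose and 1 fell after siKEAP1, 1 fell after siCCNF and 2 fell after both, where 20.2%, 25.5% and 23.6% of all genes fell, so the siKEAP1 and siCCNF counts are at or below the shares over all genes. Psme3, an activator of nuclear proteasomes, fell by 0.66 after siCCNF and 0.49 after both, Psme4, another activator, rose by 0.62 after siKEAP1 and fell by 0.30 after both, and Psmb7, a standard subunit, fell by 0.32 after siKEAP1.

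**Figure D5:**
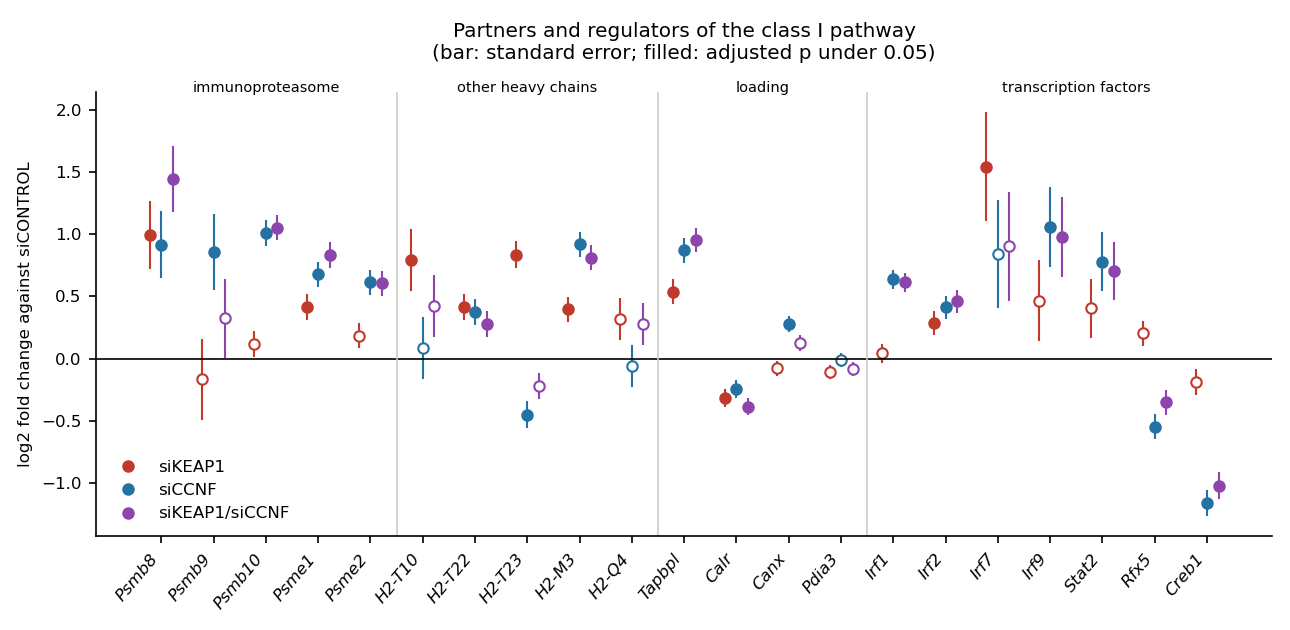
Log2 fold change against siCONTROL (y axis, bars are standard errors) of partners and regulators of the pathway (x axis) after each depletion, with filled points for an adjusted p under 0.05. Psmb10, Psme1, Psme2, H2-M3, Tapbpl, Irf1, Irf9 and Stat2 lie higher after siCCNF than after siKEAP1, and H2-T23 lies above 0 after siKEAP1 (0.84) and below 0 after siCCNF (-0.45).

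Of 11 other genes of peptide loading and folding in the endoplasmic reticulum, 2 rose and 5 fell after siKEAP1, 7 rose and 2 fell after siCCNF, and 6 rose and 1 fell after both. Over all genes the shares that rose and fell were 20.4% and 20.2%, 22.5% and 25.5%, and 20.6% and 23.6%, so that the 2 of 11 that rose after siKEAP1 are near the share over all genes. Calr (calreticulin), which holds new heavy chains in the loading complex, fell by 0.32, 0.25 and 0.38 (adjusted p = 0.00309, 0.0125 and 0.000743, edgeR). Canx (calnexin) rose by 0.28 after siCCNF, and Pdia3, the disulfide isomerase bound to tapasin, passed none of the 3 tests. Uggt1, which tests the fold of glycoproteins, rose by 0.36, 0.51 and 0.39. Of 7 other peptidases of the pathway, 2 rose and 1 fell after siKEAP1, 3 fell after siCCNF and 4 fell after both, and none rose in the last 2. The siKEAP1 counts are near the 20.4% and 20.2% of all genes that rose and fell. After siCCNF and both, 25.5% and 23.6% of all genes fell and 22.5% and 20.6% rose. Nrd1 and Tpp2 were the 2 that rose after siKEAP1, by 0.47 and 0.35. Blmh fell by 0.51 after siCCNF and 0.24 after both, and Lap3 by 0.48 and 0.35. Lnpep, a relative of Erap1 that trims peptides in endosomes, fell by 1.27 after siCCNF and 1.52 after both (adjusted p = 0.000245 and 6.90e-05, edgeR), opposite in direction to Erap1, and its change after siKEAP1 was 0.08.

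Of 20 tested transcription factors of class I promoters, 4 rose and 3 fell after siKEAP1, 7 rose and 5 fell after siCCNF, and 8 rose and 5 fell after both. Over all genes 20.4% rose and 20.2% fell after siKEAP1, 22.5% and 25.5% after siCCNF and 20.6% and 23.6% after both, so the siKEAP1 counts and the falls are near the shares over all genes. Irf1, an activator of B2m, Tap1 and immunoproteasome genes, was at 51.4 ± 2.93 CPM (SD, n = 3) in siCONTROL, 53.0 ± 4.31 after siKEAP1, 79.9 ± 3.10 after siCCNF and 78.7 ± 3.69 after both, and its changes after the last 2 were 0.64 and 0.61 (adjusted p = 1.45e-05 and 2.33e-05, edgeR). Stat2 and Irf9, which act in an interferon-activated complex, also rose after siCCNF and after both, Stat2 by 0.78 and 0.70 and Irf9 by 1.05 and 0.98, and neither passed after siKEAP1 (0.40 and 0.47). Irf7 passed after siKEAP1 alone (1.54, adjusted p = 0.0124, edgeR), with 0.84 and 0.90 after siCCNF and both. Irf2 rose by 0.29, 0.41 and 0.46. The 8 listed genes of the factors that hold Nlrc5 at the promoter (RFX, NF-Y, CREB1 and ATF1) did not move as one. After siCCNF and after both, Rfx5 (-0.55 and -0.35), Creb1 (-1.16 and -1.02), Nfyb (-0.87 and -0.76), Nfyc (-0.96 and -0.78) and Atf1 (-0.43 and -0.18) fell, Nfya rose (1.03 and 0.86), and Rfxank and Rfxap did not pass. After siKEAP1 Nfya and Nfyc fell, by 0.35 and 0.34.

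Of 12 tested GTPases that interferon-gamma induces, 3 rose in each depletion, Gbp2, Gbp3 and Gbp5, and Gbp3 went from 8.77 ± 5.15 CPM (SD, n = 3) to 31.0 ± 12.3, 27.9 ± 7.72 and 24.3 ± 5.36 CPM. None of the 12 fell after siKEAP1, 2 fell after siCCNF and 1 after both. The 3 of 12 that rose are near the 20.4%, 22.5% and 20.6% of all genes that did, and 20.2%, 25.5% and 23.6% of all genes fell. With a block for replicate number, 6 and 5 of the 12 rose after siKEAP1 and siCCNF, which is above those shares. The nearness to the shares thus holds for the fit without a block. The mRNA of interferon-gamma itself (Ifng) had 0 counts in all 12 libraries, and that of interferon-beta (Ifnb1) had 0 to 5 counts per library, with 0 in all siCONTROL libraries. Of 11 tested interferon receptor and signalling genes, 3 rose and 2 fell after siKEAP1, and 6 rose and 1 fell after siCCNF and after both. The siKEAP1 counts are near the 20.4% and 20.2% over all genes, and 22.5% and 20.6% of all genes rose after siCCNF and both. Ifnar2, a subunit of the interferon-alpha and -beta receptor, rose by 0.89 after siCCNF and 0.94 after both (adjusted p = 4.27e-07 and 3.57e-07, edgeR), and Socs1, an inhibitor of the pathway, by 0.75, 0.73 and 0.95 after siKEAP1, siCCNF and both.

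Class II genes, which professional presenting cells use, were mostly silent. Of 10 listed, 3 passed the filter, and H2-Aa and H2-Ab1, the chains of the class II molecule, had 0 counts in all libraries. Cd74, the invariant chain of class II, was at 3.88 ± 0.954 CPM (SD, n = 3) in siCONTROL, 4.88 ± 0.164 after siKEAP1, 27.2 ± 4.29 after siCCNF and 36.0 ± 6.44 after both, and rose by 2.82 and 3.22 in the last 2 (adjusted p = 8.75e-08 and 4.46e-08, edgeR). Of 7 class I-like genes, 4 rose and 2 fell after siKEAP1, 1 rose and 3 fell after siCCNF, and 2 rose and 2 fell after both, beside shares over all genes of 20.4% and 20.2%, 22.5% and 25.5%, and 20.6% and 23.6%. Fcgrt, the neonatal Fc receptor, fell in all 3 (-0.32, -0.39 and -0.44), and Raet1d and Raet1e, stress ligands of natural killer cells, fell after siCCNF (-0.84 and -0.35), while Raet1e rose by 0.35 after siKEAP1. Cd1d1, which presents lipids, rose by 0.89, 0.76 and 0.92. Hfe, which binds the transferrin receptor, rose by 1.61 after siKEAP1 (adjusted p = 2.78e-06, edgeR) and 0.64 after both. Ulbp1, another such stress ligand, fell by 1.94 after siKEAP1 (adjusted p = 1.04e-07, edgeR), from 39.3 ± 4.78 to 10.2 ± 1.32 CPM, and was at 40.1 ± 2.14 and 30.9 ± 4.35 CPM after siCCNF and both, where the latter fell by 0.34. Of 8 genes that act on class I at the surface or on its chromatin, 1 rose and 4 fell after siKEAP1 and after siCCNF, and 1 rose and 3 fell after both. Over all genes the shares that rose and fell were 20.4% and 20.2%, 22.5% and 25.5%, and 20.6% and 23.6%. The 1 of 8 that rose is below the share over all genes in each depletion. March9, a ligase that removes class I from the surface, rose by 0.72 after siKEAP1 and fell by 0.72 after siCCNF, and Ezh2, of the complex that silences class I genes in tumours, fell by 0.53, 0.52 and 0.48.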

How the data were processed

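The members and the gene lists were chosen with earlier results of these data known. RNA of 12 libraries, 3 biological replicates for each of 4 siRNA groups, was sequenced and analysed by Novogene for the authors. The authors deposited 1 table of raw read counts and FPKM per gene, and the submitters' notes name HISAT2 and GRCm39. The counting tool and its use of strand are not given in the sources used here. Gene starts and ends matched those of GENCODE M21 (GRCm38) for 53499 of 54409 shared genes, so coordinates are given as GRCm38. The table also holds the authors' own log2 fold changes and p-values, which were not used. Totals ran from 18464209 to 37743198 counts per library. Each replicate is treated as a separate culture on the authors' word. The p-values set differences of group means against the spread between replicates, estimated over the 4 groups with information shared across genes.

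Counts were filtered (filterByExpr, 15122 of 54532 genes), scaled by TMM and tested with the quasi-likelihood test of edgeR 4.0.16 in R 4.3.3, with 4 group means and 6 contrasts. A gene passed at a Benjamini-Hochberg adjusted p under 0.05 over all genes tested. Intervals are 95% confidence intervals of the log2 fold change. Genes were named by rule: the 8 members, the siRNA targets, a set of partners and regulators, in each other list up to 2 called genes of largest change per comparison, and the genes of highest Pearson r. H2-Q4, Gbp2, Nfya, Nfyb, Nfyc, Atf1, Rfxank, Rfxap, Fcgrt, Raet1e, Myog, Tnnt2, Tek, Cdh5, Cd68, Lyz2, Ifng, Ifnb1, H2-Aa and H2-Ab1 were named after their values were seen. Some genes of the lists are not reported here by name. Alternatives were DESeq2 1.42.0, library totals in place of TMM, no filter, a stricter filter (10 or more counts in all libraries), a block for replicate number, limma 3.58.1 on log2(FPKM + 1) and log2(FPKM + 0.1), removal of a gene length trend (spline, 5 df), fits of the compared libraries only, a 2-fold threshold and leaving out each library. Leaving out both libraries whose deviation correlated with log2 gene length beyond 0.25 was added after seeing the data. Promoters came from RefSeq (GRCm38.p6). Both strands were searched for motifs. The edgeR fit was tested on simulated counts.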

Additional observations from a re-analysis of the deposited data

Results flagged for a closer look

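For 5 of the 8 genes the siKEAP1 response of CCNF-depleted cells differed from that of control cells by a test of the difference itself (edgeR interaction, adjusted p under 0.05). The difference on the log2 scale was -0.75 for H2-K1, -0.40 for B2m, -0.73 for Tap1, -0.39 for Tapbp and -1.93 for Nlrc5. Keap1 mRNA stood at 14.4% of its siCONTROL mean after siKEAP1 and at 27.5% after siKEAP1/siCCNF, and the part of that difference was not tested. Of all genes, 10.5% had a lower interaction. B2m, Tap1 and Nlrc5 lost the call without any 1 of 9, 8 and 8 of the 12 libraries, and by limma 2 of the 8 genes, H2-K1 and Tapbp, kept it.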

How the results depend on the processing

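Leaving out 1 library at a time, 511 of 576 results for the 8 genes kept their direction and side of the threshold, 53 no longer passed, 1 newly passed and 11 changed sign. The numbers under the other alternatives were 442, 20, 6 and 4 of 472. Leaving out 1 library gave 3 to 6 genes higher and 0 to 1 lower after siCCNF, 1 to 3 lower in the double depletion than after siKEAP1, 2 to 5 with a lower interaction, and 363 to 1404 of all genes called between double depletion and siCCNF. With the 2-fold threshold, 2 of the 8 genes were higher after siKEAP1, 3 after siCCNF, 3 after both and 1 in the double depletion than after siKEAP1, 0 were lower after siCCNF or in the double depletion than after siKEAP1, and 1 had a lower interaction. The same threshold left 1735, 1719, 1554, 2191, 110 and 936 of all genes in the 6 contrasts. After siCCNF 0 were lower with no filter, with the length trend removed or in the compared libraries only, and 2 had a lower interaction by limma at either pseudocount. Between double depletion and siCCNF, all genes called numbered 1270 by DESeq2, 1194 with the length trend removed, 516 in the compared libraries only and 2186 without both length-deviating libraries, which also gave 4806 for the interaction. Signs turned for Tap2 after both (0.0009, length trend removed), Tapbp between double depletion and siCCNF (-0.0145, length trend removed, and -0.0296 without both libraries) and Erap1 there (0.0307 without both libraries). Without 1 library, H2-D1 ran from -0.10 to 0.0629 after siCCNF, from -0.34 to 0.0362 after both and from -0.30 to 0.0762 between double depletion and siCCNF, where Tap1 ran from -0.10 to 0.15, Tapbp from -0.0295 to 0.0479, Nlrc5 from -0.32 to 0.29 and Erap1 from -0.20 to 0.0295. The cause of these shifts was not tested. Over all genes, deviations of same-number libraries gave r from -0.27 to 0.20 over 18 pairs, 4 over 0.1. The 2 libraries that deviated with gene length, which differ in number, reached 0.39. These values therefore do not settle whether the replicate numbers pair the libraries. For H2-K1, B2m and Tap2, but for none of the other members, replicate 1 was the lowest library in each of the 4 groups. Of the genes most like the mean of the 8, this also held for Gm6548, Oas3, Parp10 and Zfp36, but not for Trim12c. With a replicate block H2-K1 also passed after siCCNF (0.30, adjusted p = 0.0151, edgeR, with 6 of the 8 genes higher). As 1 of the 8 it passed between double depletion and siCCNF too (0.40, adjusted p = 0.0238, edgeR). The block changed no other call of the 8 genes, and gave 6 and 5 of 12 interferon-gamma GTPases higher after siKEAP1 and siCCNF in place of 3 and 3, while all genes called in either direction went from 6133 to 5953 and from 7247 to 7081. Of the 8 genes, Nlrc5 had the fewest counts, 25 to 391 per library.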
